A study of Rattus norvegicus with 28 samples.

Results

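Chemokine ligands and chemokine receptors were followed in the rat spinal cord from before a contusion to 8 weeks after it, with and without transplanted neural progenitor cells. The members were all gene names on the array that begin with Ccl, Ccr, Cxcl, Cxcr, Cx3c or Xcl followed by a number or a letter l or r. This rule, which used no measured value, found 50 genes (32 ligands and 18 receptors) among the 35469 genes and other named features of the array. They were read by 60 probes on 66 spots, and spots and then probes were averaged per gene name. A few chemokine genes stand on the array under older names, such as Il8ra for Cxcr1, Il8rb for Cxcr2 and Pf4 for Cxcl4, and were described apart from the members.

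Adult female Sprague Dawley rats made up all 7 groups, with 4 arrays per group, each from the cord of a separate animal as the series describes them. T0 were sham animals by their labels. T1, T2, T4 and T8 received a contusion of 250 kdyn at the thoracic level T8 and were sampled 1, 2, 4 and 8 weeks later. T1_NPC received neural progenitor cells straight after the same contusion and was sampled at 1 week, and T2_NPC received them 1 week after the contusion and was sampled at 2 weeks. The progenitors came from cords of adult rats injured a week earlier and were grown as neurospheres. The methods describe cell-free medium for the injured controls and daily Tacrolimus (FK-506, which dampens T cell activation) from the day before transplantation, but the labels do not say which injured animals without cells received either of them. Animals were perfused with saline and a 1.5 cm segment around the epicentre was taken. The dura was removed per the labels of every group but T2_NPC, whose label also gives a slightly different extent of cord. Whole-segment RNA was hybridised, so fewer cells of a type and less RNA per cell cannot be told apart in any value below.

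Chemokines are small secreted proteins that guide leukocytes along gradients. They are named by the spacing of their first cysteines (CC, CXC, C and CX3C) and act through seven-pass receptors coupled to inhibitory G proteins, while atypical receptors bind and remove them without that coupling. Inflammatory members such as Ccl2 or Cxcl1 are induced by cytokines and microbial signals through NF-kB and interferon-regulated factors. Homeostatic members such as Cxcl12, Cxcl13, Ccl19 and Ccl21 place lymphocytes in lymphoid tissue. In the central nervous system the neuronal ligand Cx3cl1 and its microglial receptor Cx3cr1, and Cxcl12 with Cxcr4, are present without injury.

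Promoter sequence is shown for 4 ligands of chromosome 14, because Cxcl1, Cxcl2 and Cxcl6 are neighbours with the same motif and differed in their course, and because Cxcl10 held the NF-kB consensus together with an interferon-stimulated response element. Each line gives the 250 bases before the RefSeq start site in build GRCr8, 5′ to 3′ on the strand of the gene. Capitals mark matches to the NF-kB consensus on either strand and, in Cxcl10, also a match to the interferon-stimulated response element near the far end. In Cxcl2 the capitals cover 2 overlapping NF-kB matches. The windows lie at chr14:17479322-17479571 (minus strand) for Cxcl1, chr14:17467256-17467505 (minus strand) for Cxcl2, chr14:17596418-17596667 (minus strand) for Cxcl6 and chr14:15988816-15989065 (plus strand) for Cxcl10.
Cxcl1: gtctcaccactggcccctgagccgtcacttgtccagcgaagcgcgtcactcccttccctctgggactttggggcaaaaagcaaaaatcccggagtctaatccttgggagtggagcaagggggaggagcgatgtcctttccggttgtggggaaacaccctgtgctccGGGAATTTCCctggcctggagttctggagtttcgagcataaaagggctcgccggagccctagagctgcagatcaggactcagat
Cxcl2: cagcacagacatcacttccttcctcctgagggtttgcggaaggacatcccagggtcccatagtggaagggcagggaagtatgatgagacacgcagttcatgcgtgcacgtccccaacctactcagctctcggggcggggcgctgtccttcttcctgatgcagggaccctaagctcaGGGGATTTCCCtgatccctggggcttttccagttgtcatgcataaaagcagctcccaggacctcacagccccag
Cxcl6: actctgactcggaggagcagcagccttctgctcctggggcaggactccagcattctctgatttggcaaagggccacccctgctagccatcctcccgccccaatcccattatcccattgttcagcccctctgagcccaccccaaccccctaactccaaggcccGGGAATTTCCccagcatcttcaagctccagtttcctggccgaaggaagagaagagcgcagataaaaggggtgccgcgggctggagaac
Cxcl10: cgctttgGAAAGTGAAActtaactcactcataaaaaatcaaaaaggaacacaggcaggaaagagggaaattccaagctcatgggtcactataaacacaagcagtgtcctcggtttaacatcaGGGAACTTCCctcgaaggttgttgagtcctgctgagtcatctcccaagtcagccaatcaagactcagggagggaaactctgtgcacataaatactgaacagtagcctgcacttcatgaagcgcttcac
Of the 50 members, 36 had a promoter entry in the RefSeq table. The NF-kB consensus, searched on both strands, stood in 8 of these 36 (22.2%: Ccl7, Ccl9, Ccl20, Ccr3, Cxcl1, Cxcl2, Cxcl6 and Cxcl10), against 4.27% of all 27457 promoters of the same length. The interferon-stimulated response element, searched on both strands, stood in Ccl19 and Cxcl10 (2 of 36, 5.56%, against 3.29% of all), and the interferon-gamma-activated site TTCNNNGAA on either strand in Ccl17, Ccl24, Ccr6 and Cxcl11 (11.1% against 7.52%). TATAAA on the gene's strand stood in 10 of 36 (27.8% against 8.38%). These are letter matches in a window and not mapped binding sites.

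How the arrays were assigned to samples decides every result below. The values come from the authors' normalised table. Each of its 28 columns has exactly the rank order of 1 scanner output. For 12 columns that output was deposited under the same sample, and for the other 16, on 4 of 7 slides, under a different sample. When the scanner outputs were read under the sample they were deposited with, no member was called in any comparison, and over the whole array the injured groups differed from T0 in 0, 1, 0 and 0 features (1, 2, 4 and 8 weeks). With the 12 undisputed arrays alone (2 each of T0, T2 and T8, 1 each of T1 and T4, and all of T2_NPC) 26, 28, 27 and 30 members were called at these times, of which 24, 26, 24 and 27 were also called with all arrays. All T1_NPC arrays lay on 1 slide and all T2_NPC arrays on another, both scanned on a day that no other group shared, so transplantation and slide or scan day cannot be told apart. T0 to T8 were spread over the other 2 scan days. The arrays of scan day 1 were the undisputed arrays without T2_NPC, and those of scan day 2 were all disputed. Results within scan day 1 and with the 12 undisputed arrays are therefore not separate checks, and results within scan day 2 rest on the disputed assignment.

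One array stood apart. T1_NPC replicate 2 had a median correlation of 0.969 with its own group, while the other 27 arrays had 0.979 or more, and it was the lowest of its group in 32 of 50 members. Its mean level of 8 T cell markers was 5.24 against 7.45 to 7.98 in the other T1_NPC arrays, and that of 6 fibroblast markers 12.1 against 13.7 to 14.5. Because all arrays share 1 estimate of spread, it touches every comparison, and counts are given below with and without it. Between 74.5% and 82.7% of spots per array were well above background and none was saturated. Of the members, 22 were above background on all 28 arrays, 35 on every array of at least 1 group, and 5 (Ccl26, Ccr3, Ccr4, Ccr8 and Cxcr5) on none.

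More members were higher than lower at each time after injury. Against T0, 28 members were higher and 2 lower at 1 week, 30 and 2 at 2 weeks, 29 and 2 at 4 weeks, and 30 and 3 at 8 weeks (adjusted p under 0.05 in limma, with the Benjamini-Hochberg correction over all 35469 features). The contusion changed much of the array: 44.1%, 40%, 38.5% and 39.7% of all features were called at these times, 19.1%, 17.7%, 17.5% and 18.2% as higher and 25.1%, 22.2%, 21% and 21.5% as lower. The median log2 difference of the members was 1.40, 1.68, 1.48 and 1.42, against -0.10, -0.05, -0.06 and -0.04 over all features. In all, 24 members were called higher at every time, against 12.3% of features, and 2 (Ccl27 and Ccr10) were called lower at every time, against 15.9%. A further 12 were called at 1 to 3 times and 12 at none, so that 38 were called at least once, against 55.1% of features. Levels of 22 members lay above T0 with no overlap of the groups at all 4 times, against 11.2% of features. Without T1_NPC replicate 2 the calls were 32, 34, 33 and 34. Within scan day 1 they were 25, 24, 24 and 28, within scan day 2 31, 34, 29 and 33, and with scan day as a block 30, 33, 33 and 33.

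**Figure D1:**
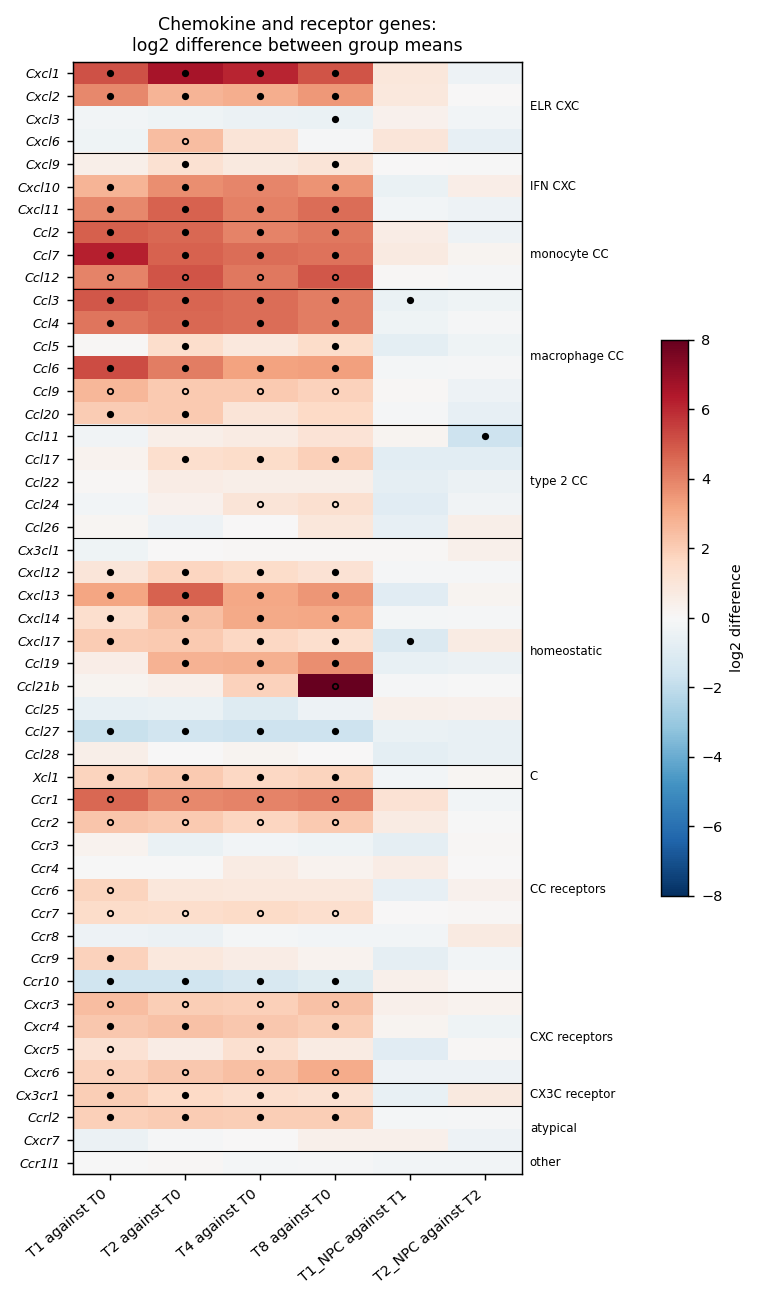
Log2 difference between group means for the members (rows, by role) in the comparisons with T0 and of the transplanted groups (columns), with red for higher and blue for lower; a dot marks a call at adjusted p under 0.05, open where a group was not above background and the colour is no measured size. Rows of rising monocyte, macrophage and CXC ligands keep their colour from T1 to T8, Ccl27 and Ccr10 are below 0 at all 4 times, and the columns of the transplant comparisons are pale.

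Levels are on the log2 scale of normalised fluorescence, 1 value per array in the order of the replicates, and differences are between group means with their standard error. Levels of different genes cannot be ranked, since each probe has its own brightness. Markers of leukocytes moved with the groups. All 10 microglia and macrophage markers were higher at T1, and their mean level was 8.63 to 8.996 in T0 and 12.05 to 12.52 in T1. Of 6 neutrophil markers 5 were higher at T1 (mean 3.34 to 3.66 against 6.67 to 6.82), and all 8 T cell markers were (4.33 to 4.83 against 7.09 to 7.77). All 6 fibroblast markers were higher at each time, no NK cell marker was called but at T2 (3 of 5), and of 4 B cell markers 1 was called at each time while Ms4a1 was not above background on any array. Markers of neurons fell, 8 or 9 of 9 at each time. The part of these cells in the results below was not tested.

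The ligands of Ccr2, which draw monocytes, gave some of the steepest rises. Ccl2 lay at 7.97, 7.27, 7.27 and 6.86 in T0 and at 12.75, 12.30, 12.07 and 11.40 in T1. Its levels were 12.08, 11.85, 11.53 and 12.31 in T2, 10.90, 10.85, 11.81 and 11.79 in T4 and 10.93, 11.59, 11.23 and 12.43 in T8. No injured array was under 10.85 and no sham array over 7.97, and the difference was 4.78 ± 0.34 at T1 (27.5-fold, adjusted p 5.75e-11) and 4.20 ± 0.34 at T8 (adjusted p 9.03e-10). Ccl7, its neighbour and close relative, lay at 3.92, 4.35, 2.72 and 3.60 in T0, where 1 of 4 arrays was above background. It reached 10.59, 10.37, 9.58 and 8.94 in T1. Later levels were 8.12, 8.18, 8.19 and 8.98 in T2, 7.88, 7.83, 7.87 and 8.81 in T4 and 7.50, 8.42, 7.58 and 8.47 in T8. The rise of 6.22 ± 0.40 at T1 (adjusted p 1.19e-11) had shrunk to 4.34 ± 0.40 at T8, and every T8 array was below every T1 array (difference -1.88, adjusted p 0.00251). Ccl12, a further monocyte attractant of rodents, was not above background in T0 (3.24, 3.60, 4.33 and 2.71). It was above background on all arrays of T1 (7.04, 8.62, 6.83 and 7.30), T2 (8.08, 8.20, 8.84 and 8.86), T4 (7.56, 6.92, 7.54 and 8.74) and T8 (7.85, 7.88, 8.66 and 9.44). These are rises of at least 10.2-, 21-, 12- and 20.5-fold (adjusted p 1.55e-07 at T1), a lower bound taken from the dimmest spots still above background on each array. All 3 members of this role were called higher at all 4 times, against 12.3% of all features.

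Of the macrophage inflammatory CC ligands 5, 6, 4 and 5 of 6 were called higher at the 4 times. The shares over all features were 19.1%, 17.7%, 17.5% and 18.2%. These ligands act on Ccr1 and related receptors, except Ccl20, which acts on Ccr6. Ccl3 lay at 7.63, 8.10, 7.99 and 7.24 in T0 and at 12.56, 12.76, 12.77 and 12.83 in T1. It then lay at 12.39, 12.37, 12.27 and 12.64 in T2, 12.36, 12.08, 12.38 and 11.92 in T4 and 11.98, 11.96, 11.67 and 11.78 in T8. Its rise was 4.99 ± 0.16 at T1 (31.9-fold, adjusted p 9.24e-17). Every T8 array was below every T1 array, with a difference of -0.88 (adjusted p 0.000432). That difference was not called with the 12 undisputed arrays or within scan day 1, where T1 has 1 array. Ccl4 lay at 4.35, 4.86, 4.45 and 4.32 in T0, 8.89, 8.96, 8.37 and 8.98 in T1, 8.97, 9.30, 9.46 and 8.70 in T2, 9.09, 8.68, 9.12 and 8.95 in T4 and 8.26, 8.75, 8.52 and 8.89 in T8. Its rise was 4.31 ± 0.22 at T1 and 4.11 ± 0.22 at T8, and the difference between those times was not past the threshold (-0.20, adjusted p 0.71). Ccl6, a rodent ligand of Ccr1, lay at 7.25, 6.97, 7.73 and 7.67 in T0 and 12.79, 12.62, 12.03 and 12.98 in T1. It lay at 11.37, 11.46, 11.60 and 11.69 in T2, 10.96, 9.77, 11.19 and 10.52 in T4 and 10.58, 10.89, 10.86 and 10.33 in T8. Injured and sham arrays were apart at every time. The rise was largest at T1 (5.20 ± 0.33, adjusted p 9.31e-12), and T8 differed from T1 by -1.94 (adjusted p 0.000258). Ccl5, the T cell and macrophage product also called RANTES, came later. It did not pass the test at T1 (0.11, adjusted p 0.845) and was higher at T2 (1.38 ± 0.36, adjusted p 0.00326) and T8 (1.48 ± 0.36, adjusted p 0.00178). T8 was also above T1 (1.37, adjusted p 0.0139), which was lost without T1 replicate 3 (adjusted p 0.05) or T8 replicate 2 (0.0517). Ccl20, the ligand of Ccr6, was higher at T1 (2.03, adjusted p 0.0159) and T2 (2.07, adjusted p 0.0156). Both calls were lost without T0 replicate 2 (adjusted p 0.0644 and 0.0647), and that at T2 also without T2 replicate 4 (0.0814). Ccl9 was called higher at all times, but its bound was under 1 and no fold is given.

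The ELR CXC ligands, which draw neutrophils through Il8ra and Il8rb, did not move as one. Cxcl1 was above background on 3 of 4 sham arrays (4.50, 4.62, 1.43 and 4.64). It lay at 9.48, 8.49, 9.13 and 8.39 in T1 and 10.698, 10.13, 9.73 and 11.13 in T2. At T4 it was 8.88, 9.35, 11.11 and 10.12 and at T8 8.32, 8.58, 8.66 and 9.78. Every injured array was above every sham array, by 5.08 ± 0.56 at T1, 6.62 ± 0.56 at T2 (adjusted p 2.35e-09) and 5.04 ± 0.56 at T8. Cxcl2 rose by 3.87 ± 0.55 at T1 (adjusted p 3.51e-06) and 3.45 ± 0.55 at T8, from T0 levels of 3.99 to 4.90, with 2 of 4 sham arrays above background. Cxcl6, whose promoter carries the same motif, was not above background in T0 (2.97, 1.33, 1.60 and 1.63) or T1 (1.65, 1.54, 1.51 and 1.48). In T2 it lay at 4.05, 3.92, 4.16 and 5.17, with 2 arrays above background, in T4 at 1.52, 2.68, 3.92 and 3.62 with 1, and in T8 at 1.52, 2.35, 1.48 and 1.73 with none. T2 was higher than T0 by at least 1.23-fold (adjusted p 0.000852), and it stood above T0 and T1 on every array. Cxcl3 is read by a pair of probes, 1 of them never above background. Its mean level was 4.19, 3.64, 4.07 and 3.80 in T0, 4.02, 3.57, 3.69 and 3.50 in T1, 3.40, 3.74, 3.52 and 3.75 in T2, 3.17, 3.06, 3.91 and 3.68 in T4 and 3.19, 3.27, 3.23 and 3.78 in T8. The groups overlapped at every time. It was called lower at T8 (-0.56 ± 0.21, adjusted p 0.0411), a call lost without T0 replicate 1 or 3 or T8 replicate 1, 2 or 3 (adjusted p 0.0856 to 0.123). The measured probe alone gave -1.10 (adjusted p 0.0405).

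Of the interferon-inducible ligands of Cxcr3, 2, 3, 2 and 3 of 3 were called higher at the 4 times and none lower. Over all features 19.1%, 17.7%, 17.5% and 18.2% were called higher. Cxcl10, the ligand whose promoter is printed above, lay at 7.81, 8.31, 8.04 and 7.09 in T0 and 9.67, 11.96, 9.75 and 10.65 in T1. Its later levels were 11.97, 11.48, 11.08 and 11.64 in T2, 11.62, 11.45, 11.85 and 11.95 in T4 and 10.94, 11.19, 12.30 and 11.24 in T8. T1 was the most spread of the groups without cells, and still stood clear of T0. The rise was 2.69 ± 0.55 at T1 (adjusted p 0.000302) and 3.91 ± 0.55 at T4 (15-fold). Cxcl11 was above background on 1 sham array (3.30, 4.33, 3.82 and 2.42) and on all injured ones. It lay at 7.19, 8.05, 6.98 and 6.95 in T1, 8.45, 8.35, 8.06 and 7.90 in T2, 7.30, 7.14, 6.76 and 8.78 in T4 and 7.05, 7.89, 7.42 and 9.26 in T8. Its difference was 3.83 ± 0.54 at T1 and 4.72 ± 0.54 at T2 (adjusted p 2.31e-07). Cxcl9 passed the test at T2 (1.24, adjusted p 0.00699) and T8 (1.00, adjusted p 0.0271), and the call at T8 was lost without T0 replicate 2 or 4 or T8 replicate 1 or 2 (adjusted p 0.0657 to 0.0818).

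Of 5 ligands of eosinophils and type 2 responses, 0, 1, 2 and 2 were called higher at the 4 times. The shares of all features called higher were 19.1%, 17.7%, 17.5% and 18.2%. Ccl26 was not above background on any array, so its course was not measured. Ccl17, a ligand of Ccr4, lay at 6.28, 6.03, 6.27 and 5.56 in T0 and 6.63, 6.19, 6.20 and 6.20 in T1. It lay at 6.69, 6.99, 7.73 and 8.08 in T2, 7.30, 6.91, 8.20 and 7.67 in T4 and 7.89, 8.63, 7.97 and 7.37 in T8. T1 overlapped T0 (0.27, adjusted p 0.575) while T2, T4 and T8 did not, with a rise of 1.93 ± 0.35 at T8 (adjusted p 8.24e-05). T8 was also above T1 (1.66, adjusted p 0.00227). All these calls of Ccl17 were lost with the 12 undisputed arrays or within scan day 1, where T1 and T4 have 1 array each. Ccl24, a ligand of Ccr3, was not above background in T0 and was higher by at least 1.12-fold at T8 (adjusted p 0.00988), where 3 of 4 arrays were above background. It was also called at T4 (adjusted p 0.036), where the bound was under 1 and no fold is given, and that call was lost without any single array of T4 or T0 replicate 1, 3 or 4 (adjusted p 0.0501 to 0.108). Ccl11, the eotaxin beside Ccl2 and Ccl7, was called at no time with all arrays. Its levels were 4.76, 5.17, 4.96 and 7.24 in T0, 4.12, 5.08, 5.98 and 5.80 in T1, 6.06, 5.42, 6.60 and 5.85 in T2, 6.36, 5.28, 6.12 and 7.01 in T4 and 7.33, 6.84, 6.10 and 6.30 in T8. T0 replicate 4 stood alone in its group, and every comparison of an injured group with T0 overlapped (-0.29 at T1, 1.11 at T8, adjusted p 0.702 and 0.0931). With the 12 undisputed arrays alone, which leave out that sham array, Ccl11 was called higher at T4 and T8 (2.15 and 1.71, adjusted p 0.0158 and 0.0111). The probes of Ccl22 disagreed: 1 rose by 1.30 at T8 (adjusted p 0.0018) and the other differed by -0.35 (adjusted p 0.424), and their mean was not called. With the 75th percentile scaling the mean of Ccl22 was called at T2 and T8 (0.70 and 0.66, adjusted p 0.0271 and 0.0358), and with the 12 undisputed arrays likewise (0.86 and 0.62, adjusted p 0.0092 and 0.0292). It was called at T2 also with normexp correction (0.23, adjusted p 0.0336) or scan day as a block (0.56, adjusted p 0.05).

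**Figure D2:**
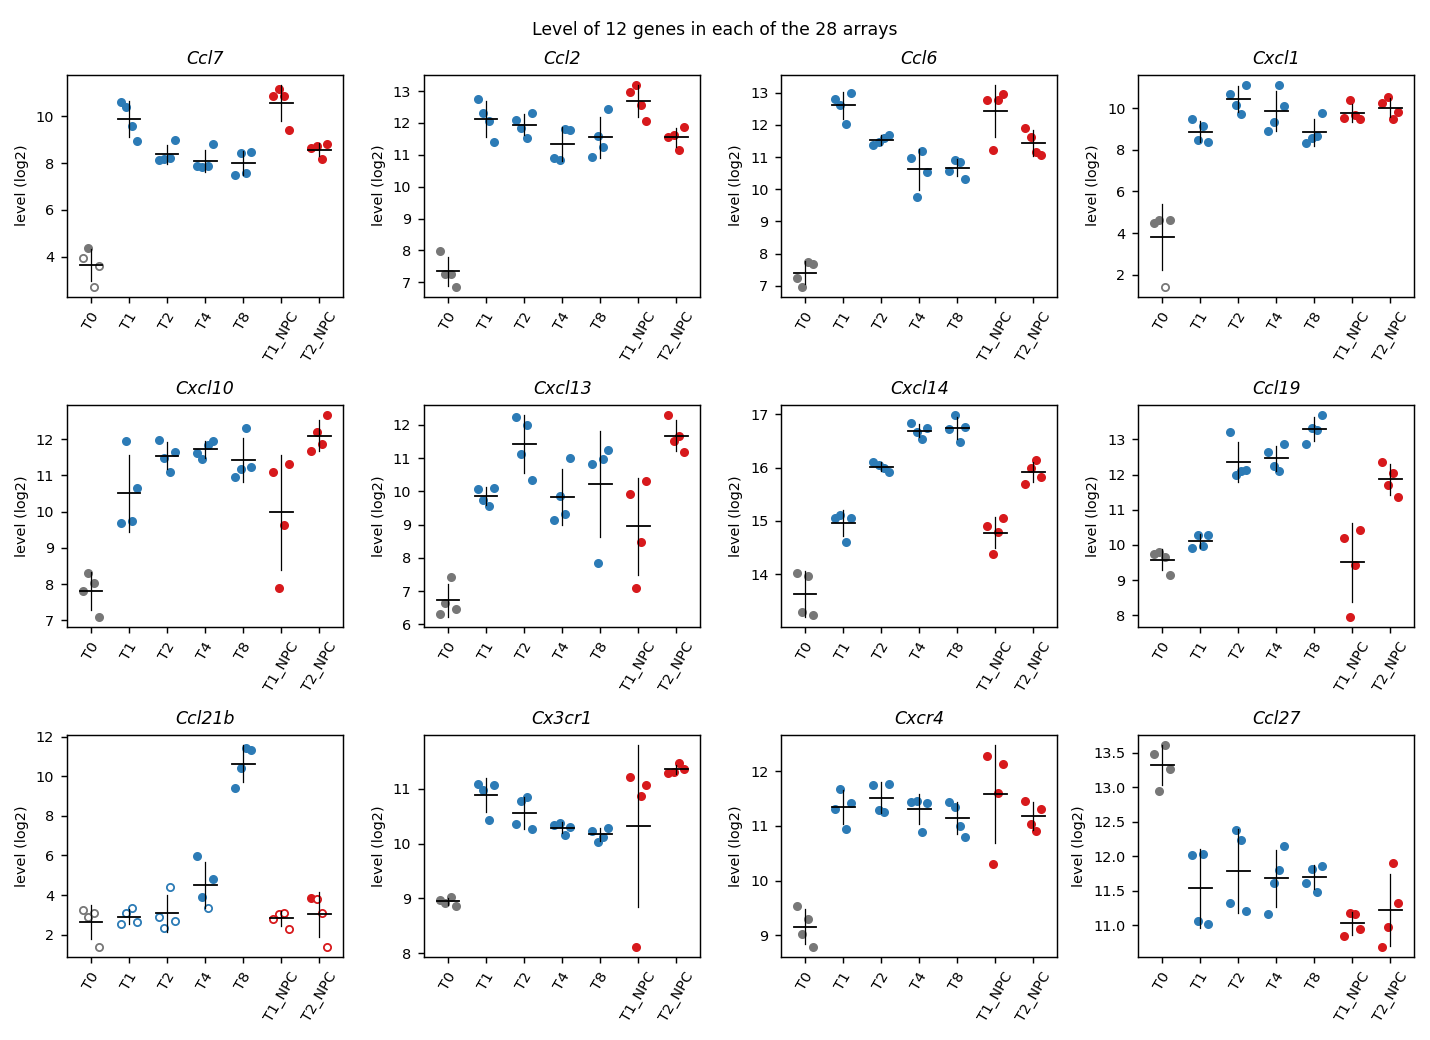
Level (log2, vertical axis) of 12 members on each of the 28 arrays, by group (horizontal axis). Points are arrays (open where not above background), lines are the mean and its SD, and each panel has its own range. Ccl2, Ccl7, Ccl6 and Cxcl1 stand high from T1, Cxcl14 and Ccl19 climb with time, Ccl21b is at 9.39 to 11.41 in T8 alone, and Ccl27 lies lower in every injured group than in T0.

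Of the homeostatic and barrier ligands 4, 5, 6 and 6 of 10 were called higher and 1 lower, and Cxcl14, Ccl19 and Ccl21b were also higher at T8 than at T1. Among all features 19.1%, 17.7%, 17.5% and 18.2% were called higher against T0 and 25.1%, 22.2%, 21% and 21.5% lower. Cxcl14, a ligand without an agreed receptor, lay at 14.03, 13.29, 13.98 and 13.24 in T0 and 15.06, 15.12, 14.61 and 15.06 in T1. It then lay at 16.10, 16.05, 15.99 and 15.92 in T2, 16.83, 16.67, 16.53 and 16.74 in T4 and 16.72, 16.99, 16.48 and 16.76 in T8. T0, T1 and T2 did not overlap each other. The rise was 1.33 ± 0.17 at T1 and 3.10 ± 0.17 at T8 (8.59-fold, adjusted p 2.42e-12). Ccl19, which guides T cells and dendritic cells through Ccr7, lay at 9.74, 9.80, 9.64 and 9.15 in T0 and 9.91, 10.27, 9.98 and 10.29 in T1. Its levels were 13.20, 11.97, 12.09 and 12.12 in T2, 12.63, 12.23, 12.09 and 12.88 in T4 and 12.87, 13.32, 13.26 and 13.70 in T8. It did not pass the test at T1 (0.53, adjusted p 0.275), although the groups did not overlap. With the T1 and T0 arrays fitted alone in limma the same difference was called (adjusted p 0.0402). Ccl19 rose by 2.76 ± 0.38 at T2 and 3.70 ± 0.38 at T8 (adjusted p 3.99e-08). Ccl21b, the other ligand of Ccr7 (Ccl21 in the current annotation), was not above background in T0 (3.23, 2.92, 3.10 and 1.38), T1 (2.54, 3.09, 3.34 and 2.62) or T2 (2.91, 2.31, 4.43 and 2.67). In T4 it lay at 5.96, 3.88, 3.35 and 4.81, with 3 arrays above background, and in T8 at 9.39, 10.44, 11.41 and 11.31. T8 was higher than T0 by at least 97.8-fold (adjusted p 2.77e-10) and all 4 arrays were over 9. The T4 call (at least 1.39-fold, adjusted p 0.016) was lost without T0 replicate 4 (adjusted p 0.0715) or T4 replicate 1 (0.0855). It was also lost with the 12 undisputed arrays, with normexp correction, with T0 and T4 fitted alone and within either scan day. The probe of Ccl21b lies at chr5:59239182-59239241 of build rn4.

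Cxcl13, which gathers B cells through Cxcr5, lay at 6.32, 6.66, 7.44 and 6.48 in T0 and 10.07, 9.74, 9.55 and 10.10 in T1. It lay at 12.24, 11.11, 11.99 and 10.35 in T2, 9.13, 9.87, 9.31 and 10.995 in T4 and 10.82, 7.86, 10.97 and 11.24 in T8. T8 replicate 2 sat nearer to T0 than the rest of its group, and no injured array overlapped T0. The rise was 3.14 ± 0.66 at T1, 4.70 ± 0.66 at T2 (26-fold, adjusted p 3.81e-06) and 3.50 ± 0.66 at T8. The calls of Cxcl13 at T1, T2, T4 and T8 were lost within scan day 1. Those at T1 and T8 were lost also with the 12 undisputed arrays. Cxcl17, a ligand of mucosal tissue, lay at 6.09, 6.52, 6.15 and 6.10 in T0, 8.22, 8.94, 7.45 and 8.37 in T1, 8.38, 8.21, 8.64 and 8.08 in T2, 7.85, 7.64, 7.95 and 8.16 in T4 and 7.35, 7.31, 7.82 and 7.81 in T8. It rose by 2.03 ± 0.30 at T1 and 1.36 ± 0.30 at T8 (adjusted p 0.000675) with no overlap. Ccl27, a skin ligand of Ccr10, fell. Its levels were 13.47, 12.95, 13.61 and 13.26 in T0 and 12.02, 11.06, 12.03 and 11.02 in T1. Those of the later groups were 11.32, 12.38, 12.24 and 11.21 in T2, 11.16, 11.62, 11.81 and 12.15 in T4 and 11.62, 11.81, 11.49 and 11.86 in T8. Every injured array was below every sham array, with a difference of -1.79 ± 0.29 at T1 (adjusted p 2.41e-05) and -1.63 ± 0.29 at T8. Ccl25 and Ccl28 were called at no time.

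Cx3cl1, the membrane-bound ligand of neurons, was not called at any time. Its mean levels were 12.69, 13.21, 12.71 and 13.38 in T0, 12.61, 12.65, 12.75 and 12.60 in T1, 13.08, 13.02, 12.83 and 13.09 in T2, 13.20, 13.29, 13.13 and 12.81 in T4 and 13.17, 12.82, 13.25 and 13.08 in T8. The difference was -0.35 ± 0.16 at T1 (adjusted p 0.085) and 0.08 ± 0.16 at T8. The T1 difference was called with the 75th percentile scaling (-0.44, adjusted p 0.0192), normexp correction (-0.37, adjusted p 0.0371) or scan day as a block (-0.42, adjusted p 0.0103). Its probes did not move alike: the probe at chr19:10667029-10667088 (rn4) differed at T1 by -0.65 (adjusted p 0.000166), with means of 15.85 in T0 and 15.20 in T1, while the one at chr19:10667691-10667750 differed by -0.04 (adjusted p 0.936). Over the same comparison 8 of 9 neuron markers fell, from a mean level of 12.34 to 12.75 in T0 to 10.52 to 11.40 in T1, and their part was not tested.

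Cxcl12, which holds and recruits cells through Cxcr4, rose as a whole, but only 1 of its probes did. Averaged over both, it lay at 12.29, 12.39, 12.41 and 12.29 in T0, 13.26, 13.34, 13.17 and 13.44 in T1, 14.29, 13.66, 13.79 and 14.57 in T2, 13.25, 13.85, 13.98 and 14.17 in T4 and 13.31, 13.66, 13.64 and 13.49 in T8. The injured arrays all stood above T0, by 0.96 ± 0.28 at T1 (adjusted p 0.00734) and 1.73 ± 0.28 at T2 (adjusted p 2.44e-05). The 5′ probe, at chr4:153510217-153510276 (rn4, plus strand), went from a mean of 11.84 in T0 to 13.80, 15.07, 14.67 and 14.58 in T1, T2, T4 and T8. The 3′ probe, at chr4:153516205-153516264, went from 12.84 to 12.81, 13.09, 12.95 and 12.46. The first differed from T0 by 1.95 at T1 and 2.74 at T8 (adjusted p 1.73e-06), the second by -0.03 and -0.38 (adjusted p 0.208 at T8). The difference between the probes within an array changed from T0 by 1.98, 2.98, 2.72 and 3.12 at the 4 times. Each of these 4 comparisons gave an exact two-sided permutation p of 0.0286, the smallest that 4 against 4 arrays allow, and 0.0286 after adjustment over the 4. The probes were designed to different RefSeq transcripts of the gene.

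**Figure D3:**
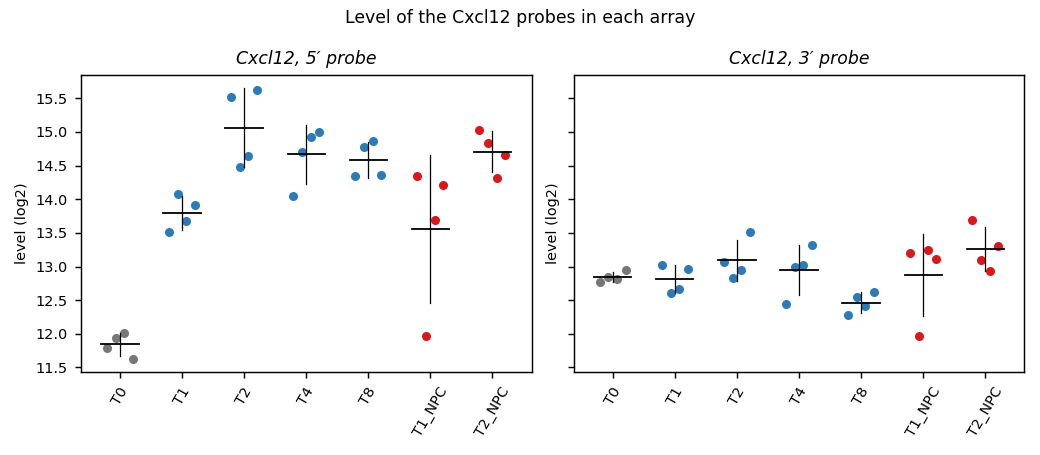
Level (log2, vertical axis) of each Cxcl12 probe on each array, by group (horizontal axis); lines are the mean and SD of 4 arrays. The 5′ probe rises from a mean of 11.84 in T0 to 15.07 in T2, while the group means of the 3′ probe stay between 12.46 and 13.26.

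Receptors were called higher in 11, 8, 9 and 8 of 18 cases and lower in 1 at each time. Over all features 19.1%, 17.7%, 17.5% and 18.2% were higher and 25.1%, 22.2%, 21% and 21.5% lower. The 11 at T1 include Cxcr5, above background on no array, and Ccr2, Ccr6 and Ccr9, each above it on 2 of 4 T1 arrays. Ccr1 and Ccr2, receptors of monocyte and macrophage ligands, were called higher at each time. Ccr1 was not above background in T0 (1.41, 3.13, 1.51 and 3.82) and lay at 7.13, 6.87, 6.75 and 7.53 in T1. It lay at 6.58, 5.87, 5.93 and 6.91 in T2, 6.47, 6.54, 6.59 and 6.07 in T4 and 6.36, 6.10, 7.12 and 6.70 in T8. That is at least 8.25-fold higher at T1 and 5.84-fold at T8 (adjusted p 5.97e-07 and 3.51e-06). Ccr2, the receptor of Ccl2, lay at 1.50, 2.61, 1.45 and 1.64 in T0, 3.86, 4.43, 4.15 and 3.61 in T1, 3.80, 3.27, 3.61 and 4.84 in T2, 3.97, 3.70, 2.87 and 3.55 in T4 and 3.50, 3.56, 4.35 and 4.08 in T8. It was called higher at all 4 times (adjusted p 5.42e-06 at T1) with no overlap, but only 1 or 2 arrays of each injured group and none of T0 were above background, so no fold is given. Cx3cr1, the receptor that marks microglia and some monocytes, lay at 8.98, 8.91, 9.03 and 8.86 in T0, 11.08, 10.97, 10.42 and 11.07 in T1, 10.35, 10.78, 10.84 and 10.26 in T2, 10.34, 10.37, 10.15 and 10.31 in T4 and 10.24, 10.03, 10.11 and 10.29 in T8. It rose by 1.94 ± 0.40 at T1 (adjusted p 0.000305) and 1.22 ± 0.40 at T8 (adjusted p 0.0163), with all groups clear of T0.

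Cxcr4, the receptor of Cxcl12, lay at 9.53, 9.03, 9.30 and 8.79 in T0, 11.32, 11.68, 10.94 and 11.43 in T1, 11.75, 11.29, 11.26 and 11.77 in T2, 11.45, 11.46, 10.89 and 11.42 in T4 and 11.43, 11.35, 11.01 and 10.81 in T8. The injured arrays were all above the sham arrays, by 2.18 ± 0.30 at T1 (4.52-fold, adjusted p 2.13e-06) and 1.99 ± 0.30 at T8. Cxcr3, the receptor of Cxcl9, Cxcl10 and Cxcl11, was not above background in T0 and rose by at least 4.72-fold at T1 and 4.3-fold at T8 (adjusted p 1.97e-08 and 6.52e-08). Cxcr6, a receptor of activated T and NK cells, rose by at least 1.4-fold at T1 and 3.13-fold at T8 (adjusted p 0.000101). Ccr7, the receptor of Ccl19 and Ccl21, was called higher at each time (at least 1.13- to 1.3-fold) and overlapped T0 at each. Ccr7 was above background on no T0 array and on 3, 2, 3 and 2 of 4 arrays at T1, T2, T4 and T8. Its bounds therefore average in injured arrays that were not above background. Its calls were lost without T0 replicate 1 at each time (adjusted p 0.0824, 0.113, 0.0684 and 0.139), and also without T1 replicate 4 at T1 (0.0514), T2 replicate 4 at T2 (0.108) and T0 replicate 2 or T8 replicate 1 or 3 at T8 (0.0536 to 0.112).

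Ccr10, the receptor of Ccl27, fell with it. Its levels were 7.23, 7.06, 7.26 and 7.56 in T0, 6.15, 5.52, 5.61 and 5.40 in T1, 5.11, 6.20, 6.08 and 5.47 in T2, 5.80, 6.002, 5.99 and 6.30 in T4 and 6.28, 6.26, 6.39 and 6.44 in T8. Every injured array was below every sham array, with a difference of -1.61 ± 0.35 at T1 (adjusted p 0.000502) and -0.94 ± 0.35 at T8 (adjusted p 0.0335). The T8 call was lost without T0 replicate 1, 3 or 4 or T8 replicate 1, 2 or 3 (adjusted p 0.0541 to 0.0834). Xcl1, the C ligand, was called higher at each time (1.79 at T1, adjusted p 0.013, and 1.77 at T8, adjusted p 0.0157), though 1 sham array alone was above background. Those calls were lost at T1 without T1 replicate 2 (adjusted p 0.0606), at T4 without T0 replicate 3 or 4 (0.0824 and 0.0736) and at T8 without T0 replicate 3 or 4 or T8 replicate 2 (0.0523 to 0.0571). Ccrl2, an atypical receptor that binds chemerin, rose by 1.89 ± 0.21 at T1 and 1.99 ± 0.21 at T8 (adjusted p 6.41e-08). Cxcr7, the atypical receptor of Cxcl12 and Cxcl11 (Ackr3 in the current annotation), was called at no time against T0 with all arrays, and at T8 with the 12 undisputed ones (0.50, adjusted p 0.0128). Ccr6 and Ccr9 were called higher at T1 alone. The call of Ccr9 was lost without T0 replicate 2 or 4 or T1 replicate 1 (adjusted p 0.121 to 0.198), and T1 replicate 1 at 7.40 was the array far above the rest. Cxcr5 passed the test at T1 (adjusted p 0.0399) and T4 (adjusted p 0.0265) although it was not above background on any array, and either call was lost on leaving out any of 6 or 5 arrays, T0 replicates 1, 2 and 3 among them (adjusted p 0.0533 to 0.131).

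Between injured groups few members differed. From T1 to T2, 3 members rose and none fell, against 1.48% of features called (0.815% higher, 0.665% lower): Cxcl6 (at least 1.56-fold, since it was not above background in T1, adjusted p 0.00906), Ccl19 (2.23 ± 0.38, adjusted p 0.00243) and Cxcl14 (1.05 ± 0.17, adjusted p 0.00232). Without T1_NPC replicate 2 the count was 7, with Ccl5, Ccl6, Ccl7 and Cxcl12 besides. From T2 to T4 limma called none, against 0.0761% of features, and 6 members had an unadjusted p under 0.05. From T4 to T8 1 member, Ccl21b, rose (6.14 ± 0.59, adjusted p 6.25e-06), against 0.0902% of features (0.0874% higher). It was not called within either scan day or when the arrays of T4 and T8 alone were fitted. Set directly against T1, T8 had 7 members higher and 3 lower, against 9.87% of features (5.45% higher, 4.42% lower). The higher ones were Ccl21b (at least 124-fold), Ccl19 (3.17 ± 0.38), Cxcl14 (1.77 ± 0.17), Ccl17, Ccl24, Ccl5 and Cxcr7 (0.84 ± 0.21, adjusted p 0.00929). Ccl6, Ccl7 and Ccl3 were lower. The call of Cxcr7 was lost without T1 replicate 4 (0.65, adjusted p 0.0549). Without T1_NPC replicate 2 the count was 14. It was 4 within scan day 1, where T1 had 1 array, 10 within scan day 2 and 11 with scan day as a block.

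Members that lie next to each other did not always move alike. The members formed 9 groups of neighbours on build rn4, taken between the positions of their probes. Ccl2, Ccl7, Ccl11 and Ccl12 span 64.42 kb of chromosome 10, and there Ccl11 alone was called at no time with all arrays. Ccl27, Ccl19 and Ccl21b span 39.37 kb of chromosome 5: Ccl27 was lower at each time, Ccl19 higher from T2, and Ccl21b at T4 and T8. Cxcl2, Cxcl1, Cxcl3 and Cxcl6 span 148.1 kb of chromosome 14, where Cxcl1 and Cxcl2 were called higher at each time, Cxcl6 at T2 and Cxcl3 lower at T8. Cxcl11, Cxcl10 and Cxcl9 span 36.64 kb of the same chromosome and were called in the same direction. Ccl17, Cx3cl1 and Ccl22 span 56.19 kb of chromosome 19, and Ccl17 was the one called. Among the receptors that lie together on chromosome 8, Ccr1, Ccr2 and Cxcr6 were called higher at each time, Ccr9 at T1, and Ccr3 and Ccr1l1 at none. Ccr3 was not above background on any array, and Ccr1l1 was above it on at most 3 of 4 arrays of a group. Their lack of a call is therefore not a measured difference in course.

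**Figure D4:**
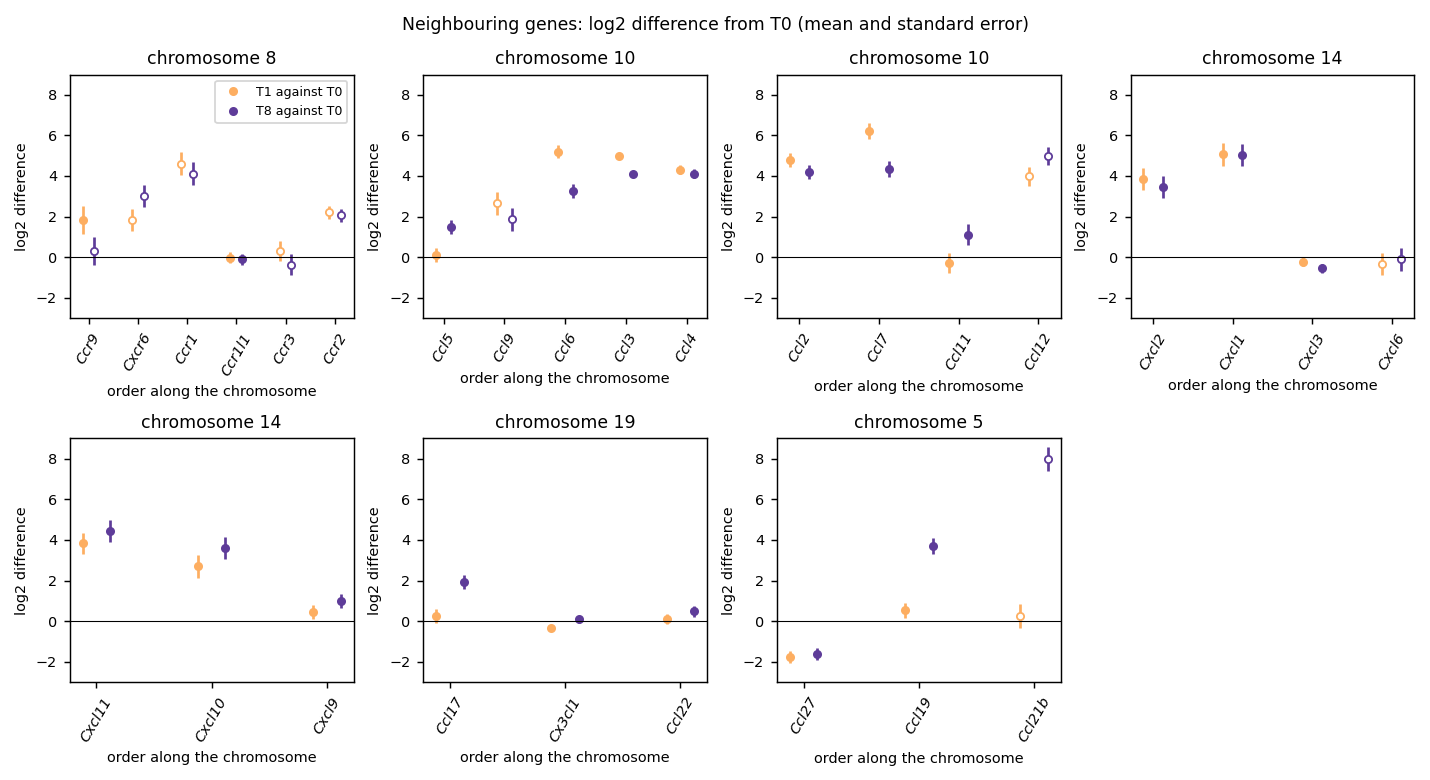
Log2 difference from T0 (vertical axis, mean and standard error) at T1 and T8 for members that lie side by side, in their order along the chromosome (horizontal axis). On chromosome 5 Ccl27 is below 0 at both times while Ccl19 is at 0.53 at T1 and 3.70 at T8; open points, such as those of Ccl21b, have a group that was not above background, so their height is not a measured size.

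Transplanted cords were compared with injured cords of the same week. T1_NPC against T1 gave no member higher and 2 lower, against 11.9% of features called (5.45% higher, 6.46% lower), and the median difference of the members was -0.18 (-0.01 over all features). Ccl3 lay at 12.27, 12.08, 12.23 and 12.12 in T1_NPC, below every T1 array (12.56 to 12.83), with a difference of -0.56 ± 0.16 (adjusted p 0.0228). That call was lost without T1 replicate 2, 3 or 4 or T1_NPC replicate 2 (adjusted p 0.0512 to 0.0585). Cxcl17 lay at 8.06, 6.14, 7.05 and 7.19 in T1_NPC against 7.45 to 8.94 in T1, overlapping, with a difference of -1.13 ± 0.30 (adjusted p 0.0151). It was lost without T1 replicate 2 (-0.90, adjusted p 0.0644) or T1_NPC replicate 2 (-0.81, adjusted p 0.0683). The count was 0 without T1 replicate 2 and 1 without T1 replicate 3 or 4. Without T1_NPC replicate 2 limma called no member, 8 had an unadjusted p under 0.05, and 8.51% of features were called. Several differences turned with that array: Cx3cr1 from -0.57 to 0.17, Cxcl10 from -0.52 to 0.17 and Cxcr6 from -0.44 to 0.43, while Ccr1, at 10.63 on that array and 6.94 to 7.93 on the others, went from 1.15 to 0.35. The 6 endothelial markers had a mean level of 9.13 to 9.33 in T1_NPC and 8.84 to 9.04 in T1, with 1 called higher. The 6 neutrophil markers had a mean level of 7.04 to 7.56 in T1_NPC and 6.67 to 6.82 in T1. The part of these cells was not tested. With slide as a random block no member was called in either transplant comparison. With the 75th percentile scaling, which moves the median of all features from -0.01 to 0.11, 5 members were called (3 higher, 2 lower), and the share of called features that were higher went from 45.8% to 71.3%.

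T2_NPC against T2 gave no member higher and 1 lower, against 9.47% of features (4.62% higher, 4.85% lower), with a median difference of -0.09 (-0.03 over all features). Ccl11 lay at 4.05, 4.27, 4.17 and 4.71 in T2_NPC, all below the T2 arrays (5.42 to 6.60), with a difference of -1.68 ± 0.52 (adjusted p 0.0412). It was lost on leaving out any single array of the 2 groups but T2 replicate 2 (adjusted p 0.0524 to 0.12). Cx3cr1 lay at 11.28, 11.31, 11.46 and 11.36 in T2_NPC, above all T2 arrays, and did not pass the test (0.79 ± 0.40, adjusted p 0.224). Without T1_NPC replicate 2, which enters here through the shared spread alone, the same difference of 0.79 was called (adjusted p 0.000761), and the count of members was 2, with 12.6% of features called. With the 12 undisputed arrays the count was 4. Ccl7 and Ccl2, the neighbours of Ccl11, differed by 0.20 and -0.39 (adjusted p 0.815 and 0.52). The mean level of 6 oligodendrocyte markers was 15.16 to 15.28 in T2_NPC and 14.57 to 14.92 in T2, with 2 called higher, and that of 6 fibroblast markers 13.31 to 14.17 and 13.52 to 14.36, with none called. The 6 endothelial markers had a mean level of 8.99 to 9.12 in T2_NPC and 8.65 to 8.95 in T2. The part of these cells was not tested. No member had a transplant difference that differed between the 2 models by limma, against 0.299% of features, and 6 had an unadjusted p under 0.05. The nearest was Cxcl17, 1.78 ± 0.42 (adjusted p 0.0646), which lay at 8.88, 8.59, 9.19 and 9.24 in T2_NPC and was called with the 75th percentile scaling (adjusted p 0.0258) or with scan day as a block (0.0493). The count of members was 1 without T1 replicate 3 or T1_NPC replicate 1.

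For the rest of the members given in full, no transplant difference passed the test. Ccl2 lay at 12.96, 13.20, 12.58 and 12.05 in T1_NPC and at 11.56, 11.64, 11.14 and 11.87 in T2_NPC. Ccl7 lay at 10.85, 11.15, 10.85 and 9.42 in T1_NPC and at 8.62, 8.71, 8.17 and 8.79 in T2_NPC. Both Ccr2 ligands stood above every sham array on all transplanted arrays. Ccl12 lay at 7.70, 7.48, 6.74 and 8.30 in T1_NPC and at 8.02, 9.13, 8.19 and 8.32 in T2_NPC, above background on all. Of the macrophage ligands, Ccl4 lay at 9.08, 7.81, 8.43 and 8.63 in T1_NPC and at 9.36, 9.05, 8.91 and 8.83 in T2_NPC. Ccl6 lay at 12.78, 11.21, 12.78 and 12.94 in T1_NPC and at 11.90, 11.63, 11.17 and 11.06 in T2_NPC. The lowest T1_NPC array of both was replicate 2. Ccl3 lay at 12.38, 11.82, 11.998 and 12.18 in T2_NPC.

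The ELR ligand Cxcl1 lay at 9.52, 10.38, 9.67 and 9.49 in T1_NPC, with every array above the T1 arrays (difference 0.89 ± 0.56, adjusted p 0.327), and at 10.22, 10.53, 9.49 and 9.80 in T2_NPC. Cxcl6 lay at 1.61, 1.55, 2.67 and 4.27 in T1_NPC, not above background, and at 4.61, 3.30, 2.62 and 4.13 in T2_NPC, above it on 1 array. Cxcl3 lay at 3.78, 4.24, 4.67 and 3.53 in T1_NPC and at 3.55, 3.24, 3.27 and 3.44 in T2_NPC. Replicate 2 of T1_NPC was thus the highest array of Cxcl1, while it was the lowest of the interferon-inducible ligands. There, Cxcl10 lay at 11.10, 7.89, 9.63 and 11.32 in T1_NPC and at 11.68, 12.19, 11.85 and 12.67 in T2_NPC. Cxcl11 lay at 7.89, 5.29, 7.13 and 8.08 in T1_NPC and at 7.63, 7.72, 7.48 and 8.21 in T2_NPC. In the type 2 ligand Ccl17 both transplanted groups had lower means than the injured ones. Its levels were 5.08, 5.33, 5.68 and 5.71 in T1_NPC, below every T1 array (difference -0.86 ± 0.35, adjusted p 0.11), and 6.95, 7.08, 6.74 and 5.43 in T2_NPC (difference -0.82 ± 0.35, adjusted p 0.14). Ccl11 lay at 6.70, 4.68, 4.83 and 5.76 in T1_NPC.

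Among the homeostatic ligands, Cxcl14 lay at 14.90, 14.38, 14.80 and 15.05 in T1_NPC and at 15.70, 15.99, 16.14 and 15.82 in T2_NPC. Ccl19 lay at 10.20, 7.96, 9.44 and 10.43 in T1_NPC and at 12.36, 11.70, 12.03 and 11.36 in T2_NPC. All arrays of either ligand were higher in the 2-week model than in the 1-week model, which was not tested. Ccl21b lay at 2.80, 3.07, 3.09 and 2.30 in T1_NPC, not above background, and at 3.83, 3.79, 3.08 and 1.38 in T2_NPC, above it on 1 array. Cxcl13 lay at 9.91, 7.08, 8.48 and 10.30 in T1_NPC and at 12.30, 11.52, 11.65 and 11.19 in T2_NPC. Replicate 2 was the lowest T1_NPC array of Ccl19 and Cxcl13. Cxcl12 lay at 13.77, 11.97, 13.46 and 13.66 in T1_NPC and at 14.36, 13.97, 13.62 and 13.98 in T2_NPC. Cx3cl1 lay at 12.64, 12.69, 12.74 and 13.03 in T1_NPC and at 12.94, 13.63, 13.55 and 13.41 in T2_NPC. Replicate 2 of T1_NPC was below every sham array in Cxcl12 and not in Cx3cl1.

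Ccl27 lay at 10.84, 11.18, 11.16 and 10.95 in T1_NPC and at 10.69, 10.98, 11.90 and 11.32 in T2_NPC, below every sham array. Its receptor Ccr10 lay at 5.34, 7.74, 5.61 and 5.49 in T1_NPC and at 5.51, 5.80, 6.02 and 5.85 in T2_NPC. Replicate 2 of T1_NPC was the one transplanted array of Ccr10 above 7. Among the other receptors, Cx3cr1 lay at 11.22, 8.12, 10.87 and 11.07 in T1_NPC, with replicate 2 below all sham arrays. Ccr2 lay at 4.86, 4.02, 4.87 and 4.80 in T1_NPC and at 4.03, 4.31, 3.55 and 3.63 in T2_NPC. Cxcr4 lay at 12.28, 10.31, 11.61 and 12.13 in T1_NPC and at 11.46, 11.04, 10.91 and 11.31 in T2_NPC, above every sham array on all.

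**Figure D5:**
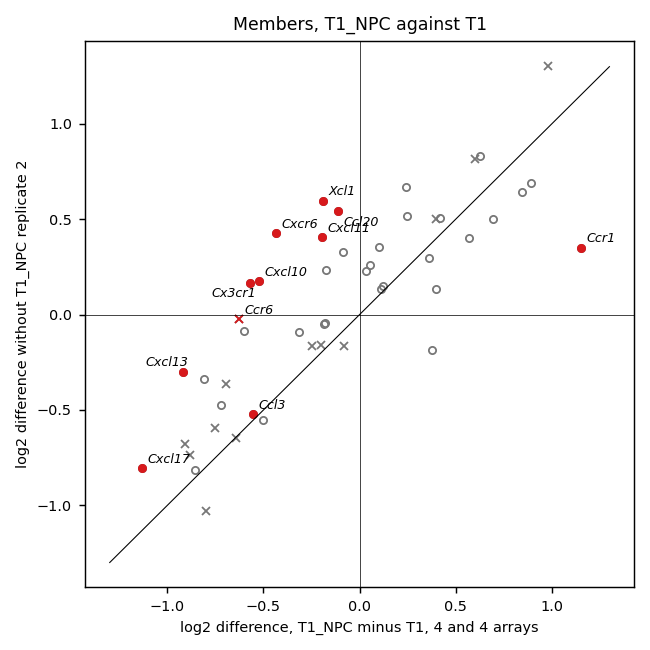
Log2 difference of T1_NPC from T1 for the members with all arrays (horizontal axis) and without T1_NPC replicate 2 (vertical axis); the diagonal marks no change, crosses are members with a group not above background, and named points are Cxcl17, Ccl3 and members that moved by over 0.6. Ccr1 falls from 1.15 to 0.35, and Cxcr6 goes from -0.44 to 0.43.

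Genes that act with the members were read from 3 lists in the same comparisons with T0, where 44.1%, 40%, 38.5% and 39.7% of all features were called. Of 17 chemokine and related genes listed under other names 10 were on the array, of which 4, 6, 4 and 5 were higher and 1 lower at the 4 times, so that 5, 7, 5 and 6 of 10 were called. Il8ra, the neutrophil receptor of the ELR ligands, was not above background in T0 (2.09 to 2.61) and lay at 7.97 to 9.34 in T1, at least 23.9-fold higher (adjusted p 1.58e-06). Pf4, a platelet and macrophage chemokine, rose by 4.31 ± 0.28 at T1, and differed between T2_NPC and T2 by -1.04 ± 0.28 (adjusted p 0.021). Cmklr1, the receptor of chemerin, rose by 2.69 ± 0.20 at T1, and Rarres2, the chemerin gene, by 1.16 ± 0.26. Mif, a cytokine that binds Cxcr4, fell by 0.76 on the log2 scale at T1. Of 34 signalling genes downstream of the receptors 31 were on the array, and 22, 18, 19 and 19 were higher and 3, 3, 4 and 4 lower, with a median difference of 0.73 at T1. The leukocyte genes Rac2 (3.76 ± 0.16) and Vav1 (4.14 ± 0.39) rose at T1, and Gnai1, an inhibitory G protein subunit, fell by 2.04 ± 0.21. Among 19 cytokines and transcription factors that induce chemokines 17 were found, and 13, 10, 11 and 9 were higher and none lower. At T1 Il1b rose by 1.32 ± 0.26 and Tnf by 1.11 ± 0.32, while Ifng differed by -0.01 ± 0.18 (adjusted p 0.985). At T8 Tnf did not pass the test (0.37, adjusted p 0.402), and Irf7, an interferon-induced factor, was higher by 2.55 ± 0.45.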

How the data were processed

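RNA of 28 rat cord segments was hybridised to 1-colour (Cy3) Agilent-014879 whole rat genome 4x44K arrays, 4 per group. Per the file headers, Agilent Feature Extraction 10.7.1.1 gave background-subtracted intensity values per spot, as deposited for each sample. The authors quantile-normalized the arrays together, control spots included, and deposited log2 values in 1 table, which was used here. Its 45018 spots (1639 control spots left out) were joined by spot number, and spots and then probes were averaged per gene name. Flags for background, slide and scan day came from the scanner output with the same rank order as each column, since for 16 columns this output was deposited under another sample. No column lacked a sample.

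Groups were compared in limma 3.58.1 (R 4.3.3) with a group-means model on all 28 arrays, empirical Bayes moderation and Benjamini-Hochberg adjustment over 35469 features. A gene was called at an adjusted p under 0.05, and p-values measure the spread between arrays labelled as biological replicates. Where a gene was above background on no array of the dimmer group, the fold is a lower bound: the mean of the brighter group against the mean of, per array, the higher of the lowest signal well above background and the gene's own signal. Members, roles, pathway and marker lists and tests were chosen with earlier results of these data known. Values in every sample are given for preset members and for the 4 largest called changes in each direction of each comparison. Results of 1 member and of some listed genes enter the counts and are not reported here by name. Motifs were searched in the RefSeq promoters of build GRCr8. Probe positions are on build rn4, as the array files give them. The script was tested on simulated data for T1 against T0 with 200 changed features. Of these, 55.5% were called at a log2 change of 1 and 84.5% at a change of 2. Features without a change made up 9.02% and 5.06% of the calls. The real T1 against T0 comparison called 44.1% of features, so these rates need not hold for it.

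Alternatives were scanner outputs as deposited, matched by rank order, or restricted to 12 undisputed arrays, normexp correction with offset 50, 75th percentile scaling, a filter on dim genes, the brightest probe per gene, a trended robust fit, the compared groups alone, slide, scan day or replicate number as a block, scan days apart (added after seeing the data), and leaving out arrays in turn. Precision is limited by 4 arrays per group.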

Additional observations from a re-analysis of the deposited data

Results flagged for a closer look

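Of 175 groups of 4 arrays among the members given in full, 19 (10.9%) held 1 array far from the other 3, where chance flags about 5%. T1_NPC replicate 2 was that array in 4 of them, with 11.21 for Ccl6, 7.74 for Ccr10, 4.02 for Ccr2 and 8.12 for Cx3cr1.

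In T0 the arrays far from the rest were replicate 4 for Ccl11 (7.24) and Ccl21b (1.38), replicate 2 for Ccr2 (2.61) and Cxcl17 (6.52), and replicate 3 for Cxcl1 (1.43). In T1 they were replicate 1 for Ccl17 (6.63) and replicate 3 for Ccl4 (8.37), Cx3cr1 (10.42) and Cxcl14 (14.61). In T2 they were replicate 1 for Ccl19 (13.20) and replicate 4 for Ccl7 (8.98), in T4 replicate 4 for Ccl7 (8.81) and replicate 3 for Cxcr4 (10.89), and in T8 replicate 2 for Cxcl13 (7.86) and replicate 4 for Cxcl3 (3.78).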

How the results depend on the processing

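The sample assignment decided the results. With the scanner outputs as deposited, the count of members called was 0 in all 4 comparisons with T0, for T2 against T1, T8 against T4 and T8 against T1, and for both transplant comparisons, and 5 called differences turned: Ccl21b at T4 against T0 (-0.78), Ccl3 and Ccl7 at T8 against T1 (1.104 and 0.78), and Ccl3 and Cxcl17 in T1_NPC against T1 (1.49 and 0.24). The other 91 of 96 named calls kept their direction and were lost. With outputs matched by rank order all 96 stayed past the threshold, and with the 12 undisputed arrays 81 of 94 did. Lost with these 12 were all calls of Ccl17, and against T0 those of Cxcl13 at T1 and T8, Cxcl6 at T2 and Ccl21b at T4. Also lost were Ccl3 at T8 against T1 and the named calls of T2 against T1 and T8 against T4. In the 4 comparisons with T0 every alternative but the outputs as deposited kept the count within 1.5 times. The smaller comparisons moved. T2 against T1 gave 0 members with the 12 undisputed arrays or scan day 1 alone and 6 with normexp or with the time course arrays alone. T4 against T2 gave 1 (Cxcl14) with scan day as a block. T8 against T4 gave 0 with the 12 arrays, with T4 and T8 fitted alone, and within scan day 1 or 2. T8 against T1 gave 4 within scan day 1. T1_NPC against T1 gave 5 with 75th percentile scaling, 1 with only those groups or with a 2-fold minimum, and 0 with slide as a random block. T2_NPC against T2 gave 4 with the 12 arrays, 2 with only those groups, and 0 with normexp or slide as a random block. The contrast between the models gave 1 (Cxcl17) with 75th percentile scaling or scan day as a block. The cause of these shifts was not tested.

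Leaving out 1 array gave 3 to 7 members for T2 against T1, 0 to 3 for T1_NPC against T1, 0 to 2 for T2_NPC against T2 and 0 to 1 for the contrast between the models. It gave 27 to 32, 30 to 34, 28 to 33 and 29 to 34 against T0. Of 143 calls of members, 22 were lost on leaving out some single array. The 75th percentile scaling moved the median of all features at T1 against T0 from -0.10 to -0.27, at T2 against T1 from 0.00 to 0.12, at T8 against T1 from 0.00 to 0.15 and in the contrast between the models from 0.00 to -0.14. The share of called features that were higher went from 55% to 67.9% for T2 against T1, from 55.2% to 65.9% for T8 against T1, from 66.7% to 40% for T4 against T2 and from 42.5% to 4.81% for the contrast between the models. Replicate numbers did not pair the arrays: the correlation of same-numbered arrays ran from -0.34 to 0.30 over 84 pairs, with a median of 0.00, and 5 of 28 arrays correlated best with their own number. With replicate number as a block the counts were 30, 32, 31, 34, 3, 0, 1, 10, 2, 1 and 0 in the order above, and all 96 named calls stayed past the threshold. Signal over background limits 15 members that were not above background on every array of any group.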

Other observations

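Genes that share a promoter motif did not all share a course of calls. Of the 8 members with an NF-kB match in the RefSeq window, 5 (Ccl7, Ccl9, Cxcl1, Cxcl2 and Cxcl10) were called higher at all 4 times. Among all 50 members 24 were, and among all features 12.3%. Ccl20 was called higher at T1 and T2 and Cxcl6 at T2. Ccr3 was not above background on any array, so its course was not measured. Of the 4 with the interferon-gamma-activated site, Cxcl11 was called higher at all 4 times, Ccl17 from T2, Ccl24 at T4 and T8, and Ccr6 at T1. These are descriptions of 36 members with an entry.

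Ligands and receptors known to pair did not always move together. Ccl27 and Ccr10 were both called lower at all 4 times, and Cxcl12 and Cxcr4, Ccl2 and Ccr2, and Cxcl10 and Cxcr3 were all called higher at all 4. Of these, Ccr2 was above background on no T0 array and on 2, 1, 1 and 1 of 4 arrays at T1, T2, T4 and T8. Only 1 of the Cxcl12 probes rose. Cx3cr1 was called higher at all 4 times while its ligand Cx3cl1 was called at none with the settings of the report. Cxcl13 was called higher at all 4 times, but its receptor Cxcr5 was not above background on any array. Whether this pair moved together therefore cannot be said, although Cxcr5 was called higher at T1 and T4.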
